A study of Rattus norvegicus with 57 samples.

Results

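The comparison concerned kidney tissue of male Han Wistar rats, 8 weeks old, taken 5 days after a single intraperitoneal dose of cisplatin in saline. The 5 arrays titled as 3 mg/kg on day 5 were set against the 3 titled as 1 mg/kg on day 5, 8 of the 57 arrays of the series, and 11683 genes were tested. Both groups received cisplatin, so the contrast asked what the higher dose added to the lower one. The design gives 6 animals per group, the labels call the arrays biological replicates, and the RNA came from a homogenate enriched in kidney cortex, a mixture of all its cell types. Each array was a one-colour Affymetrix Rat 230 2.0 array, which measures short probes near the 3′ end of each transcript. The 5 control arrays of day 5, from rats given saline, entered no contrast, and their signals are quoted as a background level. They did enter the pooled spread of the fit, the filter on low signals and the first principal component. The same dose contrast on days 3 and 8, with 5 arrays in each group of other rats, served to place the day 5 values in time.

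Cisplatin is a platinum drug that enters proximal tubule cells through organic cation and copper transporters and forms crosslinks in DNA. Damaged DNA stabilises p53, a transcription factor that switches on cell cycle inhibitors, feedback regulators and death genes. Reactive cisplatin species are bound by glutathione and metallothioneins, and electrophile stress releases NRF2, a transcription factor that drives antioxidant and conjugating enzymes. Injured tubule cells lose their brush border and begin to make secreted or shed proteins, of which KIM-1, lipocalin 2, clusterin and osteopontin are used as urinary markers.

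The tissue carried the markers its label calls for. Signals of the proximal tubule genes Slc34a1, Lrp2 and Slc22a6 lay between 1966 and 4859 in both dose groups, and those of Umod, Slc12a1, Slc12a3 and Aqp2 between 742.7 and 3803. The podocyte gene Nphs1 lay between 91.7 and 139.5. The adrenal genes Cyp11b1 and Star and the adipocyte gene Plin1 stayed at or under 12.4, while the adipocyte gene Adipoq read 19.3 to 39.99 and Cidec 30.1 to 77.2. Array medians were 24.4 to 25.1 at 1 mg/kg and 23.7 to 25.7 at 3 mg/kg, and correlations between arrays were 0.989 to 0.991 within 1 mg/kg, 0.987 to 0.992 within 3 mg/kg and 0.980 to 0.990 between the doses. The 3′/5′ signal ratio of the actin control probes, which rises as RNA is degraded, was 4.62 ± 0.13 (SD, n = 3) at 1 mg/kg and 5.42 ± 0.38 (SD, n = 5) at 3 mg/kg, without overlap, against 4.54 to 5.52 in the controls. A fit that included this ratio called 337 genes, of which 311 were among the 464 described next.

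At the higher dose 303 genes were higher and 161 lower (464 called at an adjusted p under 0.05, limma with Benjamini-Hochberg adjustment over all genes), 3.97% of the genes tested, 2.59% higher and 1.38% lower. Differences are log2 differences of (signal + 16), 3 minus 1 mg/kg, with the standard error of the fit. Their median over all genes was 0.00. Called rises were larger than called falls: the medians were 0.37 and −0.33, and 21 rises but 0 falls reached 2-fold, while 2204 genes had an unadjusted p under 0.05. The groups did not overlap in 413 of the 464, and in 14.0% of all genes tested (7.66% higher and 6.39% lower). The count rested on few animals. It was 209, 185 and 175 without 1 mg/kg array 1, 2 or 3, 183 without 3 mg/kg array 1 and 183 when the fit held these 8 arrays alone, of which 142 were among the 464.

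**Figure D1:**
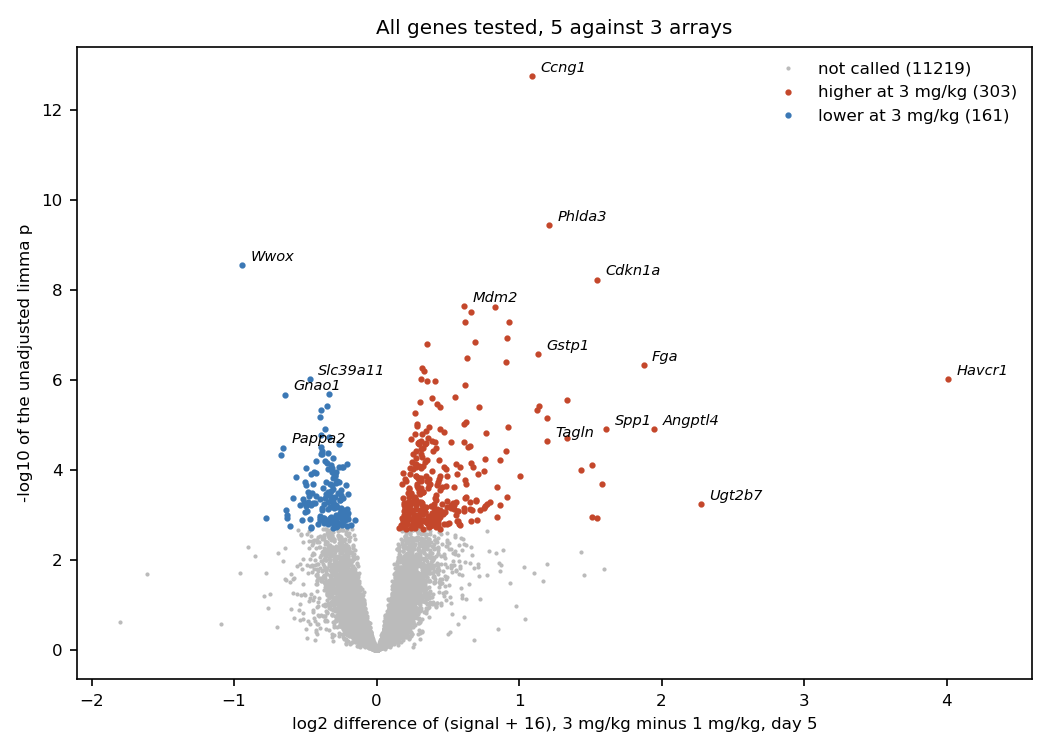
Each point is 1 of 11683 genes: the log2 difference of (signal + 16), 3 minus 1 mg/kg on day 5, on the x axis and −log10 of the unadjusted limma p on the y axis, with called genes in red (303 higher) and blue (161 lower). Havcr1 lies farthest to the right at 4.01, and Ccng1 and Phlda3 have the smallest p among the rises. Wwox leads the called falls without overlap at −0.94, and RT1-Bb, not called, lies farthest to the left at −1.80.

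Havcr1, the gene of KIM-1, a membrane protein that injured tubule cells shed, differed most. Its signals were 80.4, 9.08 and 14.5 in the 1 mg/kg rats and 1275, 265, 1128, 570 and 570 in the 3 mg/kg rats, against 1.94 to 17.7 in controls. Every 3 mg/kg rat was above every 1 mg/kg rat, and 1 mg/kg array 1 stood above the other two rats of its dose and above all controls. The difference was 4.01 ± 0.72 (adjusted p = 0.000533, limma), a 16.1-fold change of (signal + 16). Spp1, the secreted matrix protein osteopontin, gave 1233, 1296 and 732 at 1 mg/kg and 5033, 2746, 4737, 1827 and 3066 at 3 mg/kg, a difference of 1.61 ± 0.33 (adjusted p = 0.00286, limma). The groups did not overlap.

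Lcn2, the iron-carrier-binding protein lipocalin 2 or NGAL, read 37.8, 27.0 and 22.7 at 1 mg/kg and 304, 57.5, 244, 61.4 and 74.9 at 3 mg/kg. Clu, the chaperone clusterin, read 179, 234 and 194 and then 1626, 338, 1233, 286 and 397. In both genes all 3 mg/kg rats were above all 1 mg/kg rats, but arrays 1 and 3 stood far above the other three, so that the SD of the log2 values was 1.02 and 1.13 at 3 mg/kg and 0.24 and 0.18 at 1 mg/kg. Lcn2 differed by 1.58 ± 0.39 (adjusted p = 0.0138, limma), Clu by 1.51 ± 0.44 (0.0363) and Timp1, an inhibitor of matrix metalloproteinases, by 1.44 ± 0.34 (0.00933). With the spread of these 8 arrays alone the adjusted p of Lcn2, Clu and Timp1 was 0.0919, 0.127 and 0.0660. Clu lost its call without any 1 mg/kg array or without array 1 or 3 at 3 mg/kg (adjusted p from 0.0850 to 0.156). Lcn2 lost it without arrays 2 or 3 of the lower dose or 1 or 3 of the higher (0.0531 to 0.0772), and Timp1 without array 3 of the lower or 1 of the higher (0.0698 and 0.0549).

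Of 23 tested members of the list of tubular injury markers, 10 were higher and 0 lower, against 2.59% and 1.38% of all genes, and all 23 differences were positive, with a median of 0.62. The called members also held Tnfrsf12a, the receptor of the cytokine TWEAK, at 1.34 ± 0.28, the membrane-binding Anxa2 at 0.87 ± 0.20, the surface glycoprotein Cd24 at 0.83 ± 0.13, the calcium-binding S100a11 at 0.77 ± 0.16 and the lectin Lgals3 at 0.62 ± 0.17, all outside the naming rule. Lgals3 lost its call without arrays 1 or 3 at 1 mg/kg or 1 or 3 at 3 mg/kg (adjusted p from 0.0566 to 0.0981). Members that did not pass included the intermediate filament gene Vim at 0.43 (adjusted p = 0.0668, limma), the hyaluronan receptor Cd44 at 0.43, and the keratins Krt8, Krt18, Krt19 and Krt20 between 0.16 and 0.23. The list count was 6 without 3 mg/kg array 1, 6 without 1 mg/kg array 3 and 3 in the fit of these 8 arrays alone. Array 1 had the highest 3 mg/kg signal in 9 of the 10 called members. The summed signal of the list ran from 5887 to 7001 at 1 mg/kg, 9398 to 18830 at 3 mg/kg and 5742 to 6348 in controls.

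**Figure D2:**
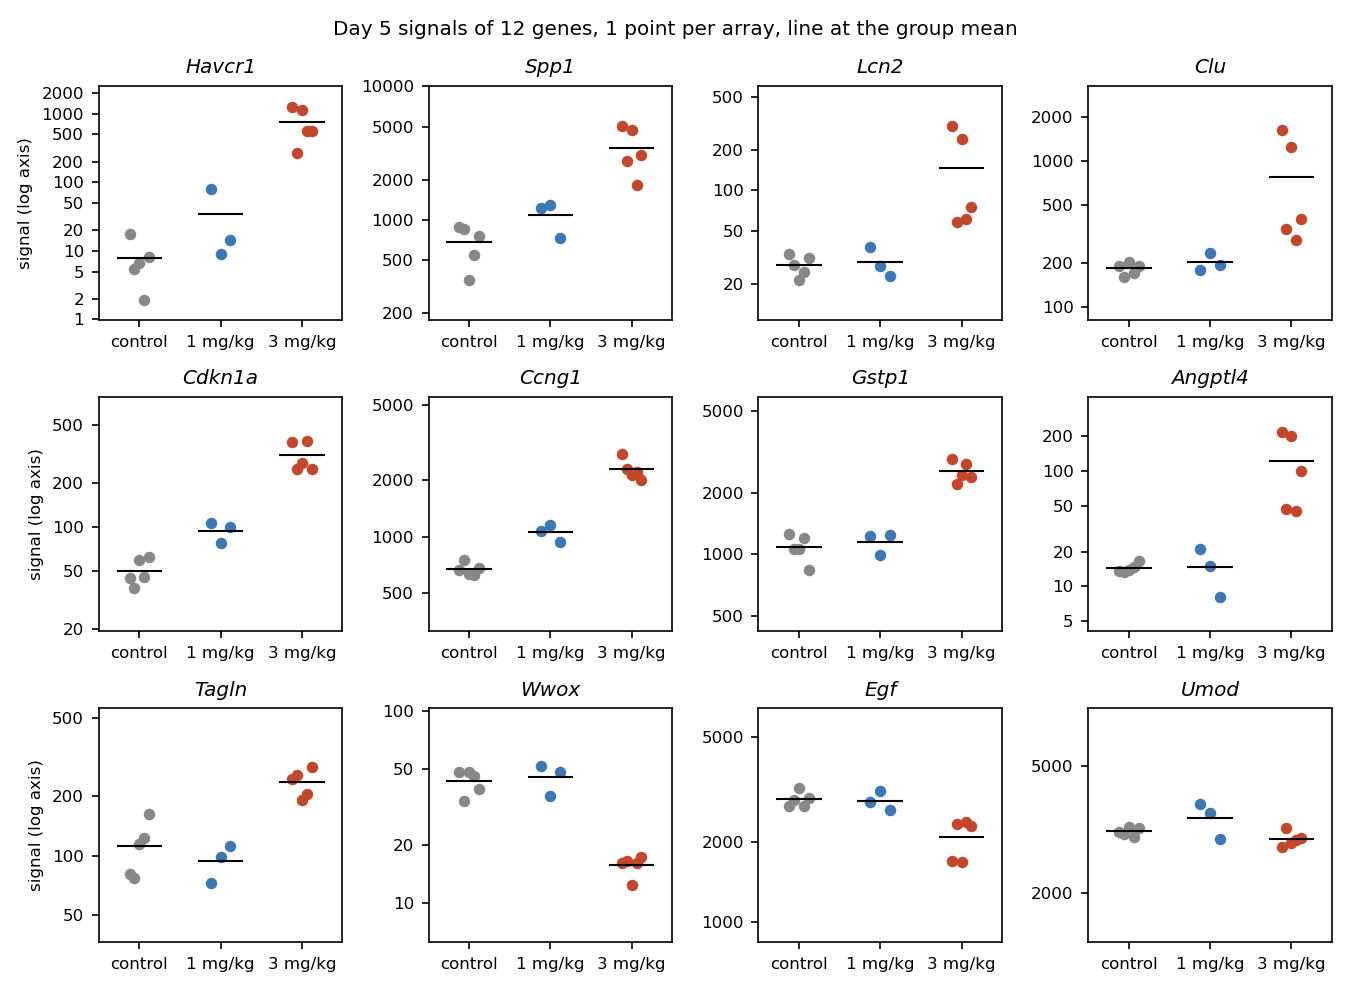
Signals of 12 genes on day 5 on log axes, 1 point per array (5 control, 3 at 1 mg/kg, 5 at 3 mg/kg) and a line at each group mean. Cdkn1a and Ccng1 step up from control to 1 mg/kg to 3 mg/kg, Lcn2, Clu and Angptl4 separate at 3 mg/kg alone with a wide spread, Wwox and Egf are lower at 3 mg/kg, and Umod overlaps between the doses.

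Several targets of p53 differed by less than Havcr1 but with small standard errors. Cdkn1a, the cell cycle inhibitor p21, gave 106, 77.7 and 99.8 at 1 mg/kg and 388, 251, 276, 392 and 250 at 3 mg/kg, a difference of 1.55 ± 0.22 (adjusted p = 1.69e-05, limma). Controls were lower than both, at 38.5 to 62.5. Ccng1, the cyclin G1 gene, gave 1079, 1163 and 940 and then 2772, 2303, 2146, 2200 and 1999, a difference of 1.09 ± 0.11 (adjusted p = 1.99e-09, limma), with controls from 628 to 750. In both genes the doses and the controls formed ranges without overlap, with 1 mg/kg in the middle.

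Phlda3, an inhibitor of AKT signalling, was higher by 1.21 ± 0.16 (adjusted p = 2.07e-06, limma) and the stress kinase Plk2 by 0.91 ± 0.16. Plk2 signals were 58.1, 58.8 and 61.4 at 1 mg/kg and 134, 104, 129, 131 and 133 at 3 mg/kg, and controls lay at 23.1 to 34.0. Mdm2, whose product degrades p53, was higher by 0.62 ± 0.09, at 274 to 280 in the 1 mg/kg rats and 359 to 478 in the 3 mg/kg rats. Outside the naming rule, the apoptosis-enhancing nuclease gene Aen was at 0.62 ± 0.10 and the ribosomal protein paralogue Rps27l at 0.67 ± 0.10. All 7 rises of the list had no overlap between the doses, as had 270 of the 303 called rises over all genes.

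In all, 7 of 21 tested p53 target genes were higher and 1 lower, against 2.59% and 1.38% of all genes. Of the 21 differences 14 were positive, and the list median was 0.35. The member that fell was Sesn1, a sestrin that restrains growth signalling, at −0.40 ± 0.12 (adjusted p = 0.0365, limma), with signals of 144, 144 and 154 against 91.7, 110, 103, 144 and 96.8. The ranges overlapped at 144, and Sesn1 lost its call without any of 6 of the 8 arrays, at adjusted p from 0.0742 to 0.141. The count of 7 rises was 7 to 9 without each array in turn. Other members with roles in cell death did not pass: the BH3 gene Bbc3 was at 0.35 (adjusted p = 0.0504, limma) and the receptor Fas at 0.36 (0.069), both without overlap. The secreted Gdf15 was at 0.94 ± 0.43 (adjusted p = 0.21). Apaf1 and Perp, also death genes, were at −0.03 and −0.07. Plk3, Zmat3, Ppm1d and Xpc were at −0.25, −0.21, −0.16 and −0.06, and none of these was called.

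The NRF2 list held enzymes of conjugation and thioredoxin repair and the metallothioneins. Of 22 tested genes 7 were higher and 0 lower, against 2.59% and 1.38% of all genes, with a median of 0.37. Short stretches of the RefSeq promoters of 4 of these 7 are shown because they hold TGAGTCA, the AP-1 element, which is also a core of some antioxidant response elements. Each runs 5′ to 3′ on the gene's strand, in the GRCr8 build, from the 250 bases before the annotated start. Capitals mark the element, written TGACTCA where it lies on the opposite strand.
Gstp1: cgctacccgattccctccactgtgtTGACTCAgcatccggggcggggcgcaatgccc
Srxn1: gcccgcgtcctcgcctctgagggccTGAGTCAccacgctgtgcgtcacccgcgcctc
Pir: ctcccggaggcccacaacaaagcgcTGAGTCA
Mt2A: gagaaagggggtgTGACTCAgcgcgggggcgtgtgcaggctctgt
They lie at chr1:210769735-210769791 (minus strand), chr3:161064725-161064781 (plus), chrX:33851050-33851081 (minus) and chr19:10838914-10838958 (minus). The first base of the element was 61, 62, 7 and 237 bases before the start.

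Of 9722 tested genes with a promoter in the table, 3.55% held TGAGTCA on either strand in those 250 bases in any listed start, 19 of 259 called rises (7.34%) and 4 of 134 called falls (2.99%). The looser antioxidant response core TGACNNNGC, which overlaps TGACTCAGC, was in 13.3% of all, 11.2% of the rises and 14.9% of the falls. In the NRF2 list 6 of 20 held TGAGTCA and 11 of 20 held TGACNNNGC. A match describes these letters and is no evidence of binding.

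Gstp1, the pi class glutathione transferase, read 1226, 993 and 1238 at 1 mg/kg and 2940, 2203, 2448, 2774 and 2396 at 3 mg/kg, higher by 1.14 ± 0.19 (adjusted p = 0.000235, limma). Its 1 mg/kg rats lay within the control range of 840 to 1264. Srxn1, the sulfiredoxin that restores peroxiredoxins, was higher by 0.92 ± 0.24 (55.2, 39.0 and 46.4 against 163, 75.5, 119, 92.7 and 79.2), the quinone reductase Nqo1 by 0.65 ± 0.18 and pirin, Pir, by 0.63 ± 0.13. Outside the naming rule, thioredoxin reductase Txnrd1 was at 0.45 ± 0.09, metallothionein Mt2A at 0.45 ± 0.13 and the aldehyde reductase Akr7a3 at 0.41 ± 0.09. None of these 7 overlapped between the doses, and 270 of the 303 called rises over all genes did not.

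Other members with large differences did not pass. Akr1b8, an aldo-keto reductase, was at 1.60 ± 0.64 (adjusted p = 0.147, limma) and the glutathione peroxidase Gpx2 at 1.10 ± 0.46 (0.163), both without overlap. The glutathione synthesis genes Gclc and Gclm were at 0.01 and 0.05, and Hmox1, heme oxygenase, at 0.44 with overlap. The count of 7 fell to 4 without 1 mg/kg array 2, 1 mg/kg array 3 or 3 mg/kg array 1, while Gstp1, Pir, Txnrd1 and Akr7a3 kept their calls in all 22 alternatives. Srxn1 lost its call without arrays 2 or 3 at 1 mg/kg or 1 at 3 mg/kg (adjusted p from 0.0734 to 0.115), and Nqo1 without any 1 mg/kg array or arrays 1 or 5 at 3 mg/kg (0.0776 to 0.103). The Srxn1 call was also lost with an offset of 64 and with probe sets averaged by gene. Its 2 probe sets were at 0.92 and 0.02. Mt2A lost its call without any 1 of 7 arrays, at up to 0.135.

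Ugt2b7, a glucuronosyltransferase of a family of closely similar genes that conjugates drugs and steroids, had the second largest rise, 2.28 ± 0.62 (adjusted p = 0.0253, limma). Its signals were 171, 27.7 and 127 at 1 mg/kg and 667, 385, 804, 350 and 406 at 3 mg/kg, and 1 mg/kg array 2 was low among its group; without it the difference was 1.64 and adjusted p = 0.231. The call was also lost without array 3 at 1 mg/kg or arrays 1 or 3 at 3 mg/kg (0.0557, 0.0709 and 0.0640). Abcc4, the efflux pump MRP4, was higher by 0.52 ± 0.11 (302, 323 and 332 against 531, 407, 511, 484 and 400). These were the 2 rises among 11 efflux pumps and glucuronosyltransferases, against 2.59% of all genes. Abcc2, the apical pump MRP2, was at 0.65 ± 0.30 without overlap (adjusted p = 0.215), and Abcb1a, P-glycoprotein, at −0.14.

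Genes of lipid handling and of clotting held other large rises. Angptl4, a secreted inhibitor of lipoprotein lipase and a target of the fatty acid receptors named PPARs, read 21.3, 15.1 and 8.15 at 1 mg/kg and 218, 46.7, 198, 45.0 and 99.5 at 3 mg/kg, higher by 1.95 ± 0.40 (adjusted p = 0.00288, limma). It was the only rise among 27 fatty acid oxidation and PPAR target genes, against 2.59% of all genes, and the list median was 0.06. The fall in that list was the receptor gene Ppard, at −0.47 ± 0.12, whose 2 probe sets went in opposite directions. Ppard lost its call without 1 mg/kg array 1 or 2 or 3 mg/kg array 1, at adjusted p from 0.0998 to 0.115.

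Fga, the fibrinogen alpha chain, read 46.2, 23.6 and 39.0 against 304, 132, 354, 73.6 and 135, higher by 1.87 ± 0.32 (adjusted p = 0.000335, limma). Its partner chains, outside the naming rule, did not pass: Fgb was at 0.84 ± 0.30 (adjusted p = 0.098), without overlap, and Fgg at 0.48 ± 0.22 (0.224). Fga was the 1 call among 9 fibrinogen and acute phase genes, against 3.97% of all genes. Slc34a2, a sodium phosphate cotransporter typical of lung and gut, read 79.8, 52.2 and 50.5 against 384, 107, 373, 128 and 176, higher by 1.55 ± 0.45 (adjusted p = 0.0363). It lost its call without any 1 mg/kg array or without 3 mg/kg array 1 or 3, at adjusted p from 0.0658 to 0.135.

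Among 20 immediate early genes, transcription factors induced within minutes of a stimulus, 3 were higher (against 2.59% of all genes) and 0 lower (1.38%). The list median was 0.38. Junb, an AP-1 subunit, read 66.9, 72.2 and 98.0 at 1 mg/kg and 176, 105, 168, 129 and 149 at 3 mg/kg, higher by 0.76 ± 0.17 (adjusted p = 0.00695, limma). Fosb and Fosl2, also AP-1 subunits, were at 0.53 ± 0.14 and 0.57 ± 0.17 with signals at or under 17.0 throughout, where the offset of 16 compresses differences. Fosl2 turned to −0.20 with no filter on low signals, where another probe set represented it. Fos and Egr1, outside the naming rule, had larger differences of 1.20 ± 0.46 and 1.04 ± 0.41 without overlap and did not pass (adjusted p = 0.131 and 0.138). Rises in the list numbered 0 in place of 3 without 1 mg/kg array 1, 1 without 1 mg/kg array 2 or 3, and 2 without 3 mg/kg array 1, 3, 4 or 5.

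In the chemokine and inflammation list 5 of 22 were higher and 1 lower, against 2.59% and 1.38% of all genes. The list median was 0.21. Ccl20, which attracts cells bearing CCR6, read 33.3, 92.6 and 53.2 against 388, 108, 343, 83.2 and 188, higher by 1.52 ± 0.35 (adjusted p = 0.00844, limma), and the ranges overlapped. The cytokine Il24 was at 0.66 ± 0.19, also with overlap, and the adhesion molecule Icam1 at 0.63 ± 0.16 (109, 112 and 101 against 274, 120, 201, 152 and 159). Outside the naming rule, the chemokine Cxcl11 was at 0.59 ± 0.18 and Nfkb2, an NF-kappaB subunit, at 0.47 ± 0.14. Rises in the list numbered 0 in place of 5 without 1 mg/kg array 1, and 1 without 1 mg/kg array 2 or 3 or 3 mg/kg array 1 or 3. Ccl20 had adjusted p = 0.0906 without 1 mg/kg array 1.

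Cmklr1, the chemerin receptor, was the member that fell, at −0.78 ± 0.23 (adjusted p = 0.0363, limma). Its signals were 23.0, 22.7 and 22.0 at 1 mg/kg and 4.63, 14.7, 3.73, 4.15 and 6.90 at 3 mg/kg. The controls lay at 4.51 to 12.1, with the 3 mg/kg rats, so the 1 mg/kg rats were the group that stood apart, and the 2 probe sets of the gene disagreed in direction. Its call was lost without any 1 of 7 arrays, at adjusted p from 0.0504 to 0.114.

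Markers of infiltrating and resident leukocytes had no calls: 0 of 15 macrophage and myeloid genes (1 at an unadjusted p under 0.05), 0 of 7 lymphocyte genes (0) and 0 of 8 MHC class II genes (1) passed in limma. Over all genes 3.97% were called and 18.9% had an unadjusted p under 0.05, so lists this short can hold no call at that share. The summed myeloid signal was 2656 to 2944 at 1 mg/kg and 2602 to 3367 at 3 mg/kg, and the lymphocyte sum 175.3 to 188.7 and 168 to 202.4. Blood cell genes had 0 calls of 7, also 0 at an unadjusted p under 0.05, with sums of 1668 to 2916 and 628.3 to 1941. The beta-globin gene Hbb was at 335 in 3 mg/kg array 1 and 1311 to 1556 in the other four. In homogenate, fewer cells of a type and less RNA per cell cannot be told apart.

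Tagln, the actin-binding protein transgelin of smooth muscle and myofibroblasts, read 72.7, 98.2 and 112 against 244, 258, 193, 207 and 281, higher by 1.20 ± 0.26 (adjusted p = 0.00412, limma). It was the 1 call among 22 matrix and fibroblast genes, against 3.97% of all genes, and the list median was 0.15. The smooth muscle actin Acta2 was at −0.14 and the collagen Col1a1 at 0.09, neither called. Endothelial and podocyte genes had 0 calls among 13 and 9, against 3.97% of all genes. At an unadjusted p under 0.05 there were 1 and 0, against 18.9% of all genes. The endothelial sialomucin Emcn was the closest, at −0.37 ± 0.11 without overlap (adjusted p = 0.0506, limma), and the other member named, Vwf, was at 0.40 ± 0.23. The podocyte genes Nphs1 and Clic5 were at 0.17 and −0.17.

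In the DNA replication list 3 of 27 genes were higher and 0 lower, against 2.59% and 1.38% of all genes. Of the 27 differences 26 were positive, and the median was 0.23. The called members were the origin licensing factor Cdt1 at 0.48 ± 0.13, the clamp loader subunit Rfc4 at 0.41 ± 0.11 and the ribonucleotide reductase subunit Rrm1 at 0.40 ± 0.11 (110, 104 and 129 against 157, 142, 168, 151 and 162). The helicase genes Mcm5 and Mcm6, at 0.52 and 0.55 without overlap, did not pass (adjusted p = 0.086 and 0.0656, limma). Rises in the list numbered 0 in place of 3 without 1 mg/kg array 2 or 3 mg/kg array 1 and 1 without 1 mg/kg array 3. Of 25 mitosis genes 0 passed and 1 had an unadjusted p under 0.05, against 3.97% and 18.9% of all genes. Ect2 and Ccna2 did not overlap between the doses, at 0.46 ± 0.23 and 0.45 ± 0.26.

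Of 18 DNA repair genes 1 was called, against 3.97% of all genes. It was Ercc1, a nuclease subunit of nucleotide excision repair, at 0.22 ± 0.06 (adjusted p = 0.0347, limma). Its signals were 98.3, 98.6 and 102 against 127, 122, 120, 112 and 115. Its call was lost without any 1 mg/kg array and without 3 mg/kg array 1, 2 or 3, at adjusted p from 0.0561 to 0.120.

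Falls were smaller, and 9 of the 10 largest had signals at or under 71.6. Wwox, an oxidoreductase gene that spans a common fragile site, read 52.1, 36.0 and 48.0 at 1 mg/kg and 16.1, 16.5, 12.4, 16.2 and 17.4 at 3 mg/kg, lower by −0.94 ± 0.13 (adjusted p = 1.05e-05, limma). The controls, at 34.0 to 48.4, lay with the 1 mg/kg rats, and both probe sets of the gene were lower. Dpyd, the pyrimidine-degrading dehydrogenase, read 101, 105 and 115 against 72.6, 78.3, 61.3, 60.9 and 88.2, lower by −0.49 ± 0.14. These were the 2 falls among 20 very long genes, against 1.38% of all genes, and the list median was −0.09. Dpyd lost its call without any of 6 arrays, at adjusted p from 0.0644 to 0.138, and Wwox kept it throughout, so the list count was 1 without each of those 6.

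The other large falls had no theme fixed in a list. P2ry1, a receptor for extracellular ADP, read 48.6, 58.0 and 70.8 against 23.4, 34.9, 27.1, 36.6 and 34.0, at −0.67 ± 0.15 (adjusted p = 0.00601, limma). Pappa2, a protease that cleaves insulin-like growth factor binding proteins and is made in the cortical thick ascending limb, read 30.2, 17.6 and 22.8 against 6.19, 9.92, 7.55, 11.5 and 9.56, at −0.66 ± 0.14. Plcl1, a phospholipase C-like protein, was the brightest of the 10, at 499, 494 and 657 against 394, 320, 329, 343 and 438, and differed by −0.57 ± 0.14. For these 3 genes the controls, at 41.9 to 55.3, 22.4 to 34.3 and 501 to 650, lay above all 3 mg/kg rats.

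Gnao1, a G protein alpha subunit, was at −0.64 ± 0.12, the cyclase-associated Cap2 at −0.63 ± 0.18, Akain1, a kinase anchor inhibitor, at −0.61 ± 0.18, the hyaluronan synthase Has2 at −0.59 ± 0.16 and the tubulin gene Tubb4a at −0.54 ± 0.15. Signals of Gnao1, Cap2 and Has2 lay at or under 37.9 in all 8 rats, and the controls overlapped both doses for Gnao1, Cap2, Akain1, Has2 and Tubb4a. Of the 10 largest falls, Wwox and Gnao1 kept their calls without each array in turn. P2ry1 and Plcl1 lost theirs without 1 mg/kg array 3 (adjusted p = 0.0739 and 0.132) and Pappa2 without 1 mg/kg array 1 (0.0662). Without 1 mg/kg array 1 or 2, Cap2 had adjusted p of 0.305 and 0.0959, Akain1 0.0935 and 0.135, Has2 0.0732 and 0.136, and Tubb4a 0.104 and 0.131. Akain1 was also lost without 1 mg/kg array 3 (0.152), as were Akain1, Cap2 and Has2 without 3 mg/kg array 1 (0.112, 0.0850 and 0.0652), Akain1 and Cap2 without 3 mg/kg array 2 (0.0901 and 0.0690) or 3 (0.101 and 0.0565), and Tubb4a without 3 mg/kg array 5 (0.0813).

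Lists of nephron segment genes had few calls on day 5, as did all genes tested (3.97%). Of 28 proximal tubule uptake transporters 1 was higher, the phosphate transporter Slc20a1 at 0.40 ± 0.12, and 0 lower, with a median of −0.09. Its call was lost without any 1 mg/kg array or without 3 mg/kg array 1, 3 or 5, at adjusted p from 0.0641 to 0.292. Slc22a2, the organic cation transporter OCT2 that carries cisplatin into the cell, read 1048, 524 and 686 against 554, 599, 633, 633 and 684, a difference of −0.22 ± 0.23 (adjusted p = 0.661, limma). The 1 mg/kg rats spanned all of the 3 mg/kg range. Of 20 brush border and metabolic enzymes, Dpyd alone was lower and 0 were higher.

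Of 18 genes of the loop of Henle and distal tubule 0 passed, against 3.97% of all genes, and the median was −0.15. At an unadjusted p under 0.05 there were 2, against 18.9% of all genes. Egf, the epidermal growth factor precursor of the distal tubule, read 2831, 3124 and 2640 against 1704, 2348, 1679, 2385 and 2313, lower in 5 of 5 rats by −0.47 ± 0.42 (adjusted p = 0.598, limma). The standard error here comes from the pooled spread of all groups, an SD of 0.57, while the SD was 0.12 at 1 mg/kg and 0.26 at 3 mg/kg. Calb1, the calcium buffer calbindin, also did not overlap, at 3069, 2813 and 2682 against 1946, 1958, 1907, 2309 and 2177, and did not pass (−0.47 ± 0.18, adjusted p = 0.135). With the spread of the 8 arrays alone, of the 3 day 5 groups or with array weights, Calb1 passed (adjusted p = 0.0197, 0.00387 and 0.0358), and Egf passed in the 3 day 5 groups (0.0304). Umod, uromodulin of the thick ascending limb, read 3803, 3553 and 2959 against 2792, 3201, 2855, 2929 and 2960, with overlap, at −0.21 ± 0.60 (adjusted p = 0.889). Among 15 collecting duct genes the transcription factor Gata3 was higher by 0.55 ± 0.15, and 0 were lower. Gata3 had adjusted p of 0.151, 0.125 and 0.0778 without 1 mg/kg array 1 or 2 or 3 mg/kg array 3.

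Exact permutation tests of 12 genes used the 8 arrays alone, where 5 against 3 allows 56 splits and no two-sided p under 0.0357. Any gene whose groups do not overlap reaches that value, and 14.0% of all genes tested had no overlap. The 12 genes were chosen with earlier results of these data known, so the tests restate the lack of overlap and add no separate support. Havcr1, Spp1, Clu, Lcn2, Timp1, Cdkn1a, Ccng1, Plk2, Mdm2 and Egf were at that smallest value (adjusted p = 0.0429 over the 12), the first 9 higher and Egf lower in 5 of 5 rats at 3 mg/kg. Umod had exact p = 0.107 (adjusted p = 0.117) and Slc22a2 exact p = 0.464 (adjusted p = 0.464).

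The remaining lists had no called member in limma. Counts at an unadjusted p under 0.05 were 4 of 20 endoplasmic reticulum stress and ATF4 genes, 2 of 19 interferon response genes, 5 of 17 Wnt pathway genes, 3 of 7 renin-angiotensin genes, 2 of 15 clock genes, 1 of 14 cholesterol synthesis genes, 2 of 5 inner medulla genes, 0 of 3 adipocyte genes and 0 of 1 adrenal gene, Nr5a1 at −0.24, against 18.9% of all genes. The stress factor Atf3 was at 0.78 ± 0.33 and the phosphatase subunit Ppp1r15a at 0.34 ± 0.16. Sfrp2, a secreted Wnt antagonist, was at −0.85 ± 0.31 (adjusted p = 0.105) and the Wnt transcription factor Tcf7 at 0.34 ± 0.12, both without overlap. The angiotensin receptor genes Agtr1b and Agtr1a were at −0.47 ± 0.15 (adjusted p = 0.0534) and −0.34 ± 0.12, also without overlap. The interferon-induced Irf1 and Psmb9 were at 0.33 and 0.34, the clock repressors Nr1d1 and Bhlhe40 at 0.59 and 0.39, the osmolyte genes Slc5a3 and Nfat5 at 0.56 and 0.27, the sterol enzymes Lss and Sqle at −0.24 and 0.17, and the fat cell genes Adipoq and Cidec at 0.10 and 0.05.

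**Figure D3:**
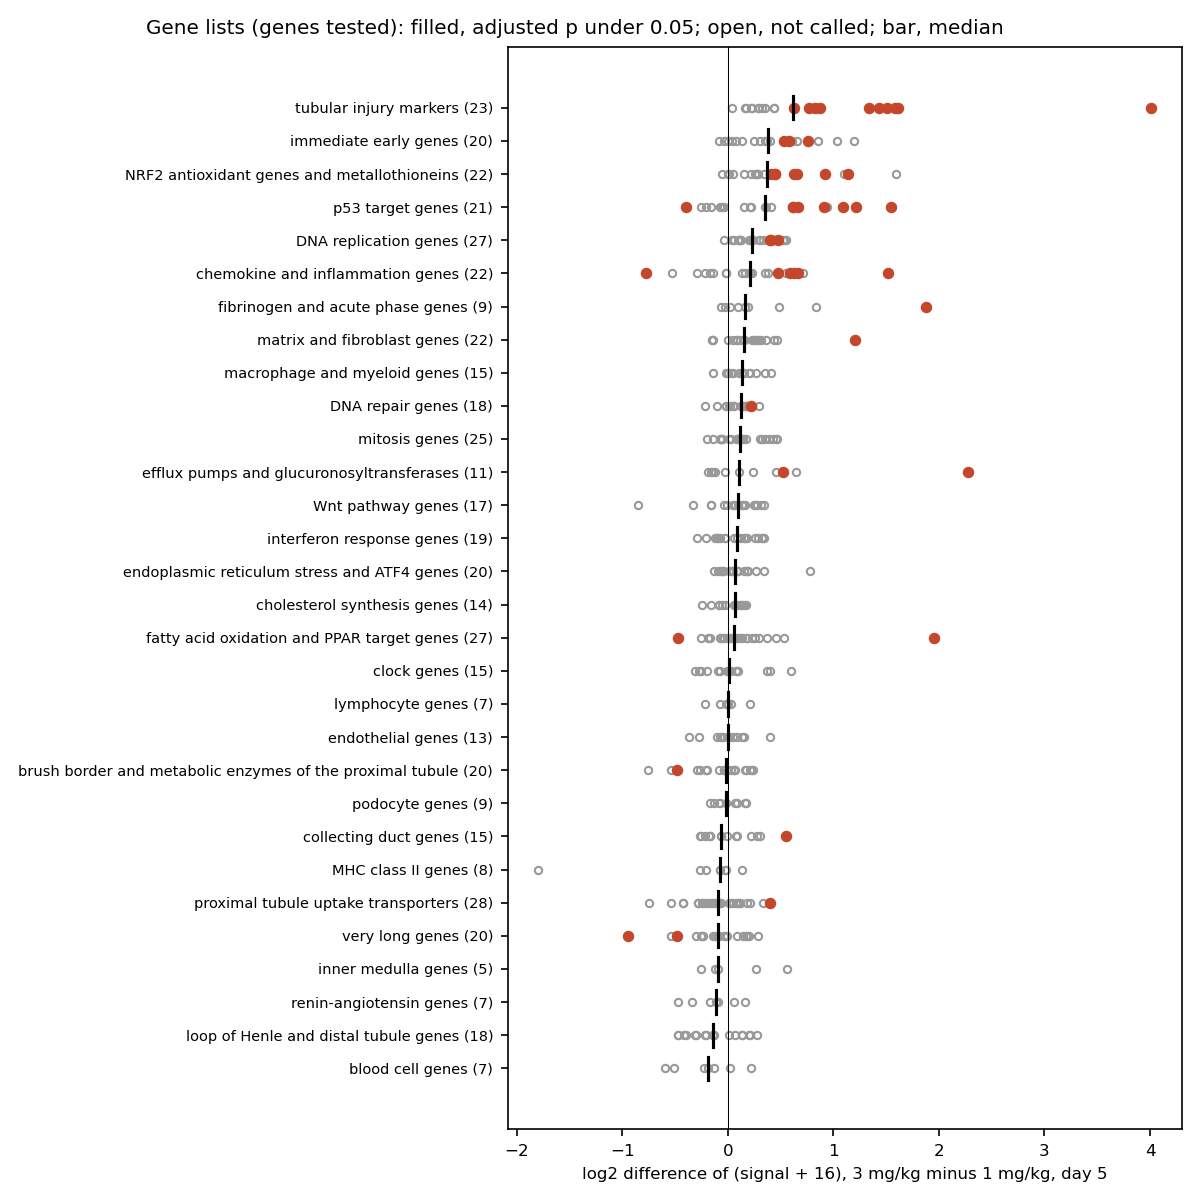
Log2 differences of (signal + 16), 3 minus 1 mg/kg on day 5, for the tested genes of each list with at least 5 of them, the number in brackets; filled points were called, open points were not, and the bar is the list's median. The injury, immediate early, NRF2 and p53 lists have medians between 0.35 and 0.62, against 0.00 for all genes, and the loop of Henle list has none called.

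The dose contrast was fitted on days 3 and 8 in other rats. It called 365 genes on day 3 (182 higher, 1.56%, and 183 lower, 1.57%, together 3.12%) and 2704 on day 8 (1412 higher, 12.1%, and 1292 lower, 11.1%, together 23.1%). Of the 303 day 5 rises, 39 were also called higher on day 3 (12.9% of the day 5 rises and 21.4% of the day 3 rises) and 163 on day 8 (53.8% and 11.5%). Of the 161 day 5 falls, 31 were lower on day 3 (19.3% and 16.9%) and 41 on day 8 (25.5% and 3.17%). On day 8, 10 of the rises were called lower and 6 of the falls higher, and 217 of the 464 genes were called on day 5 alone. Across genes, the day 5 differences correlated with those of day 3 at 0.317 and of day 8 at 0.365, a description over genes, which are not independent replicates.

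Some p53 targets were called on all 3 days. Cdkn1a stood at 1.42, 1.55 and 1.31 on days 3, 5 and 8, Ccng1 at 0.84, 1.09 and 0.87, Plk2 at 1.04, 0.91 and 1.05, and the list counts were 7, 7 and 11 rises of 21. The injury list had 1 rise on day 3, 10 on day 5 and 18 on day 8. Over all genes tested, 1.56%, 2.59% and 12.1% were higher on days 3, 5 and 8. Havcr1 stood at 1.30 (adjusted p = 0.249, limma), 4.01 and 3.07, Lcn2 at 0.43, 1.58 and 2.15, and Clu at 0.16, 1.51 and 2.33. Spp1 differed by 0.20, 1.61 and 0.77. The NRF2 list had 1, 7 and 14 rises, and Gstp1 stood at 0.34, 1.14 and 1.02. Tested as changes between days, 0 genes of either list passed from day 3 to day 5 (Havcr1 at adjusted p = 0.217, Clu 0.365 and Gstp1 0.165, limma). Over all genes 0.0514% passed. From day 5 to day 8, 4 of 23 injury genes changed upwards and 1 of 22 NRF2 genes downwards, against 2.64% and 3.60% of all genes.

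The change of the dose difference between days was tested itself. From day 3 to day 5 it was called for 6 genes (0.0514%, 3 or 0.0257% in each direction; 0 to 33 without each day 5 array in turn). The tetratricopeptide gene Ttc39b, the RNA polymerase III subunit Polr3d and the chaperonin subunit Cct2 changed upwards by 0.66 ± 0.14, 0.46 ± 0.10 and 0.38 ± 0.08. Gnao1, Zfp385c and Klhl12 changed by −0.78 ± 0.16, −0.81 ± 0.17 and −0.48 ± 0.09. Without 1 mg/kg array 2 or 3 or 3 mg/kg array 3 the count was 0, and without 3 mg/kg array 4 or 5 it was 33 and 26, and without 3 mg/kg array 1 it was 2.

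From day 5 to day 8, 730 genes changed (309 up, 2.64%, and 421 down, 3.60%, together 6.25%; 398 to 687 without each day 5 array, and 432 and 398 without 1 mg/kg arrays 1 and 2). The retinol carrier Rbp4 changed by 4.14 ± 1.05, the efflux pump Abcc2 by 1.75 ± 0.39, the lysosomal glycoprotein Gpnmb by 1.74 ± 0.45 and the claudin Cldn22 by 1.61 ± 0.39. Umod changed by −4.29 ± 0.80, the cartilage matrix gene Matn1 by −3.37 ± 0.81, the anion transporter Slco1a6 by −2.63 ± 0.66 and Egf by −2.58 ± 0.55. Among loop and distal genes 14 of 18 were lower at 3 mg/kg on day 8, against 0 on day 5, and 12 of 18 changed downwards. Of the uptake transporters 14 of 28 were lower on day 8 and 8 changed downwards. Over all genes 11.1% were lower on day 8 and 3.60% changed downwards.

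**Figure D4:**
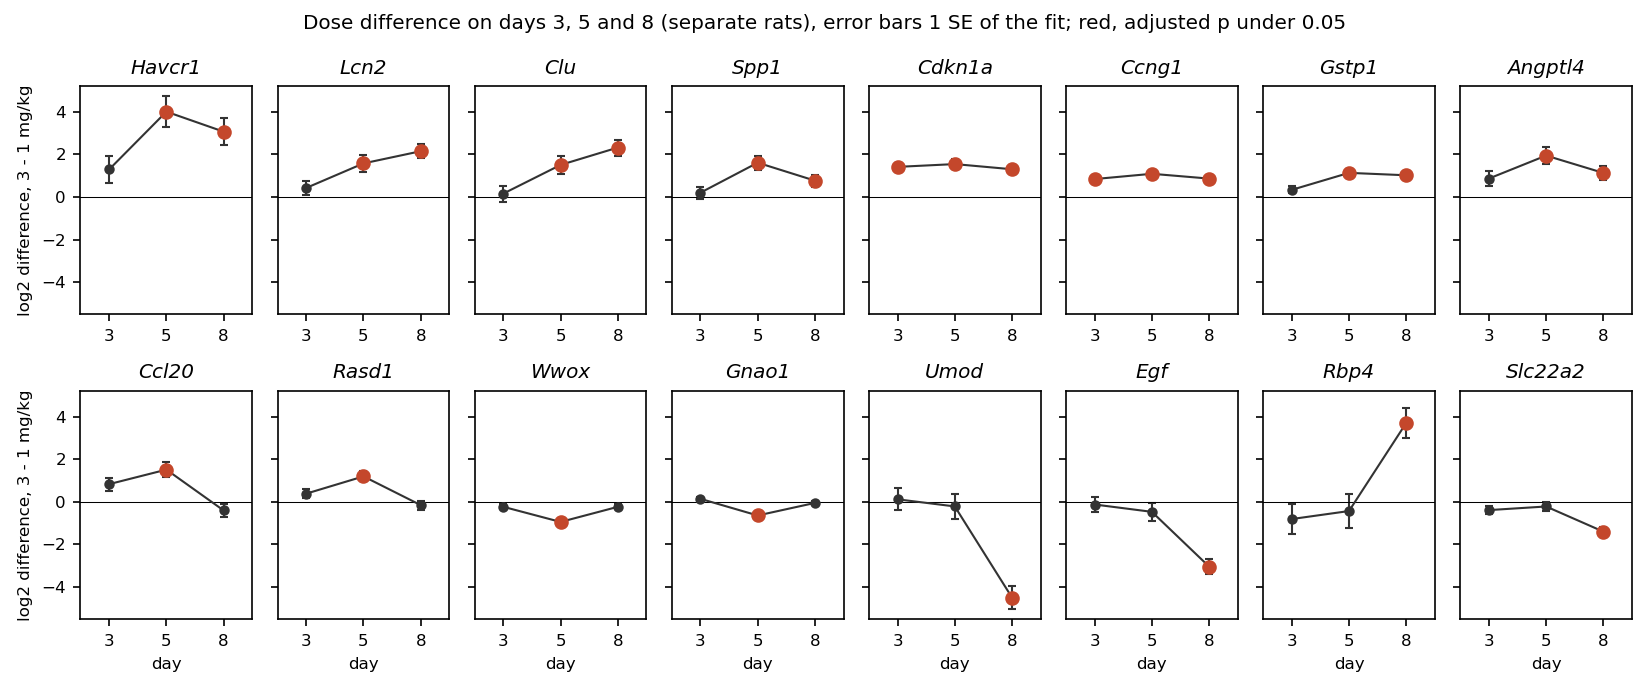
Log2 difference of (signal + 16), 3 minus 1 mg/kg, on days 3, 5 and 8 for 16 genes, with 1 standard error of the fit; the rats differ between days, and red points had an adjusted p under 0.05. Cdkn1a and Ccng1 lie between 0.84 and 1.55 on all 3 days, Havcr1, Spp1 and Angptl4 are highest on day 5, Wwox is called on day 5 alone, and Umod, Egf and Slc22a2 are called lower on day 8 alone.

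Some of the largest day 5 rises were smaller or gone on day 8. Ccl20 differed by 0.83, 1.52 and −0.40 on days 3, 5 and 8, a change of −1.92 ± 0.47 from day 5 to day 8 (adjusted p = 0.00947, limma). Outside the naming rule, the small GTPase gene Rasd1, which glucocorticoids induce, differed by 0.39, 1.20 and −0.15, and the mucin-like Glycam1 by 0.15, 0.93 and −0.23, changes of −1.35 ± 0.32 and −1.16 ± 0.19. Among the falls, Wwox differed by −0.23, −0.94 and −0.23, and its change from day 5 to day 8 was 0.71 ± 0.17 (adjusted p = 0.00963). The day 5 arrays enter both the contrast that named these genes and these changes.

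A further group was seen only among the called genes and is described without a test: the protein components of the cytosolic ribosome, taken by gene symbol. Of 41 tested, 31 were higher at 3 mg/kg on day 5 and 0 lower (75.6% against 2.59% of all genes), with called differences of 0.19 to 0.38 and a median over the 41 of 0.27. Rpl19 read 3115, 3273 and 2591 at 1 mg/kg and 4004, 3731, 3984, 3831 and 3625 at 3 mg/kg, and the stalk protein Rplp0 read 2510, 2395 and 2197 and then 3241, 2831, 2903, 2795 and 2951. Rpsa was at 0.33 ± 0.07, Rps24 at 0.35 ± 0.07 and Rps3 at 0.38 ± 0.11. Rps3 lost its call without each of the 8 arrays in turn, at adjusted p from 0.0529 to 0.261. In 32 of the 41 the groups did not overlap and 3 mg/kg was higher, against 7.66% of all genes. The differences under 0 were Rpl39 (−0.50 ± 0.26) and Rpl28 (−0.13 ± 0.11), with signals at or under 124. The 2 probe sets of Rps24 disagreed in direction.

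The mean log2 level of these 41 genes was 10.82 ± 0.07 (SD, n = 3) at 1 mg/kg and 11.04 ± 0.04 (SD, n = 5) at 3 mg/kg on day 5, ranges of 10.74 to 10.89 and 11.01 to 11.12, and 10.77 to 10.84 in controls. The same contrast gave 17 rises of 41 on day 3 and 37 on day 8, against 1.56% and 12.1% of all genes. Falls numbered 0 on either day, and the medians were 0.19 and 0.30. The differences changed for 0 of 41 genes from day 3 to 5 or from day 5 to 8, against 0.0514% and 6.25% of all genes. The elongation factor subunit Eef1d, singled out after its values were seen, was higher by 0.35 ± 0.06 and kept its call in all 22 alternatives. Eef1b2, Eef1a1 and Rack1, singled out likewise, were at 0.30, 0.19 and 0.29. They lost their calls in 3, 16 and 1 of the 22. These transcripts are among the brightest on the array, have many near-identical pseudogene copies that could share probes, and their differences were small.

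The number of ribosomal genes called was 9 without 1 mg/kg array 3, 21 without 3 mg/kg array 1, 17 in the fit of the 8 arrays alone and 29 with the actin ratio in the fit. Under quantile normalisation it was 26, with a median of 0.18, and all 22 alternatives gave a positive median. On day 3 the actin ratios of the doses did not overlap either (4.67 to 5.51 at 1 mg/kg and 5.74 to 6.02 at 3 mg/kg). On day 8 the actin ratios of the doses overlapped (4.52 to 8.58 at 1 mg/kg and 4.59 to 5.87 at 3 mg/kg) and the mean levels did not (10.81 to 10.86 and 10.97 to 11.30). On day 5 the ratios went with dose (4.54 to 4.77 and 5.09 to 6.06). The part of RNA quality in the ribosomal differences was not tested.

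**Figure D5:**
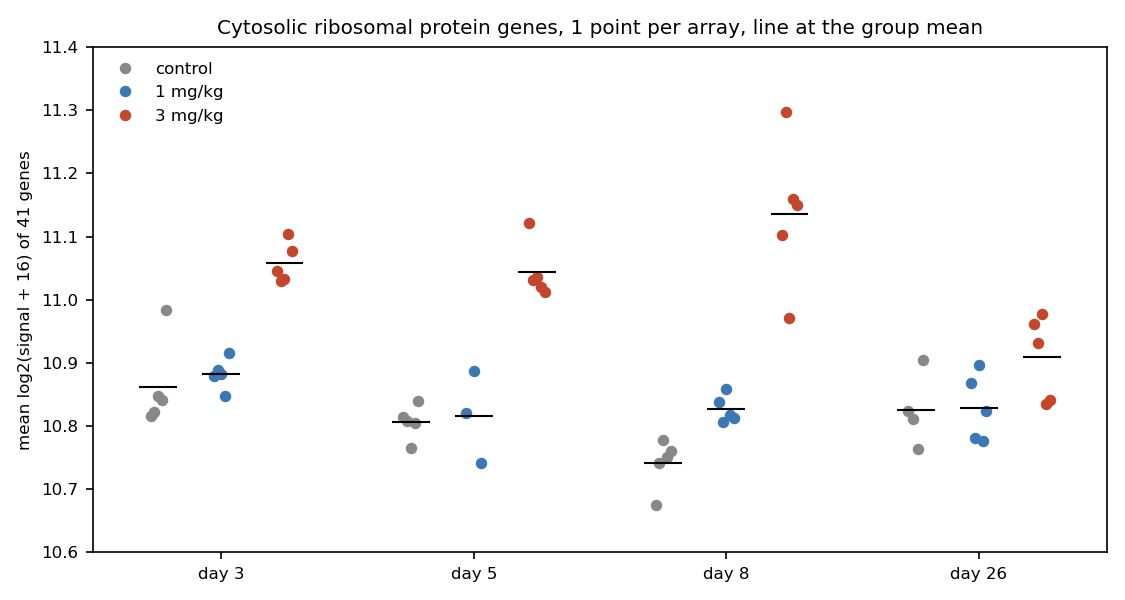
Mean log2(signal + 16) of 41 cytosolic ribosomal protein genes on each of the 57 arrays, by day and dose, with a line at each group mean. The 3 mg/kg rats lie above the 1 mg/kg rats without overlap on days 3, 5 and 8 (11.01 to 11.12 against 10.74 to 10.89 on day 5), and the groups overlap on day 26.

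The 3 mg/kg rats differed among themselves. Array 1 had the highest 3 mg/kg signal in 173 of the 303 called rises and array 3 in 66, against 20 to 24 for each of the others. On the first principal component of the day 5 arrays, 29.3% of the variance, arrays 1 and 3 scored 21.7 and 16.9, the other 3 mg/kg rats 6.87 to 10.5 and the 1 mg/kg rats −7.20 to −6.09. The mean log2 level of the called rises, which these values chose, was 8.39 and 8.29 in arrays 1 and 3 and 8.11 to 8.17 in the other three, against 7.71 to 7.73 at 1 mg/kg and 7.73 to 7.77 in controls.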

How the data were processed

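RNA of rat kidney cortex was measured on 57 one-colour arrays in 12 groups of dose and day, as the labels give them. The deposited intensity values, 1 per probe set and array, come from MAS5 according to the labels (per the submitters' processing notes), with version and filters not stated there. Every array has a trimmed mean of 99.99. Of 31099 probe sets, 57 controls were left out and 20826 had 1 gene symbol from the platform annotation. Probe sets above the 40th percentile of their array on at least 3 arrays were kept (21829), and the brightest of each gene represented it (11683 genes).

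Tests used log2(signal + 16) and limma 3.58.1 in R 4.3.3, with 12 group means over 57 arrays, so standard errors pool the spread of all groups. Tests were two-sided with Benjamini-Hochberg adjustment at 0.05. The fit was tested on simulated data. The number of arrays limits the precision. Promoters came from RefSeq (GRCr8), and gene names from its gene table. Named genes were the 10 largest rises and falls without overlap, 12 set genes, up to 4 called members of each of 32 lists (or the top 2 where none was called) and the 4 largest changes in each direction between days. The lists, genes and alternatives were chosen with earlier results of these data known. Same-numbered rats were not paired: their deviations correlated at −0.071 to 0.076.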

Additional observations from a re-analysis of the deposited data

Results flagged for a closer look

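Within the 5 rats given 3 mg/kg, 11 of 130 named genes had 1 array whose gap to its nearest neighbour, as a share of the group's range, passed Dixon's 95% critical value of 0.71. Chance gives about 1 in 20 such groups. The shares were 0.887 for Hbb, 0.839 for Alas2, 0.795 for Sfrp2 and 0.804 for Eef1d in replicate 1, 0.829 for Plk2 in replicate 2, 0.752 for Wwox, 0.764 for Tcf7 and 0.795 for Rps3 in replicate 3, 0.722 for Has2 and 0.796 for Kctd1 in replicate 4, and 0.740 for Cldn22 in replicate 5. Hbb, Alas2 and Sfrp2 were low and Eef1d was high in replicate 1.

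The difference between the doses itself differed between days by limma's test of that change. The day 5 arrays enter both changes and also the contrast by which several of these genes were named. From day 3 to day 5 it changed in Ttc39b by 0.66, Polr3d by 0.46 and Cct2 by 0.38, and in Gnao1 by −0.78, Zfp385c by −0.81 and Klhl12 by −0.48. From day 5 to day 8 the changes upwards were 4.14 in Rbp4, 1.75 in Abcc2, 1.74 in Gpnmb, 1.61 in Cldn22, 0.77 in Cap2, 0.74 in Tubb4a, 0.71 in Wwox, 0.62 in the zinc transporter Slc39a11 and 0.59 in Gnao1. The transporters Abcc2 and Slc39a11 were thus among the upward changes. Other tubular and transport genes changed downwards, Umod by −4.29, Slco1a6 by −2.63, Egf by −2.58 and Slc5a3 by −1.27. Slc22a2 also changed downwards by −1.18, Calb1 by −0.98, Slc20a1 by −0.66 and Abcc4 by −0.51. So did Matn1 by −3.37, Ccl20 by −1.92, Rasd1 by −1.35, Glycam1 by −1.16, Cebpd by −1.02, Bhlhe40 by −0.97, Fosb by −0.90, Kctd1 by −0.85, Ppp1r15a and Cxcl11 by −0.73 each, and Wfdc10a by −0.65.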

How the results depend on the processing

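The limits are the 3 arrays at 1 mg/kg and the low signals of most named falls. The count of 464 was 183 in the 2 groups alone and 175 to 467 without each array. The change from day 3 to day 5, 6 genes, was 19 with an offset of 64, 13 after centring on the 75th percentile, 11 with no filter, 3 with a filter at the 60th percentile, 10 with probe sets averaged by gene, 102 with array weights, 11 over every kept probe set and 0 to 33 without each array. The change from day 5 to day 8, 730 genes, was 399 with the actin ratio as covariate and 398 to 687 without each array. Over the other alternatives the day 5 count was 337 to 644, with 57% to 68% higher. The replicate number as a block, a shared number rather than a pairing, gave 562 calls. Fosl2 turned to −0.20 (adjusted p = 0.505, limma) with no filter, where another probe set represented it. Of the 81 called genes named, 28 kept their call in every alternative that tested them (21 for Gtse1 and Glycam1, otherwise 22), 46 lost it without at least 1 array, 33 in the 2 groups alone and 12 with the actin ratio. Left-out arrays allow no exact p under 0.0571, so no exact test was run on them.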

Other observations

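Igfbp1, Tubb6, Gtse1, Tnfrsf1a, Kctd1 and Wfdc10a, all outside the naming rule, kept their calls in every alternative that tested them, 21 for Gtse1 and 22 for the others. Igfbp1, an insulin-like growth factor binding protein, read 417, 431 and 527 at 1 mg/kg and 1611, 844, 1559, 869 and 1225 at 3 mg/kg, higher by 1.34 ± 0.25 (adjusted p = 0.00107, limma). The tubulin gene Tubb6 read 23.5, 18.9 and 17.6 against 102, 41.5, 77.99, 54.2 and 52.1, higher by 1.14 ± 0.22. Gtse1, a microtubule-binding regulator of p53, was at 3.42 to 5.58 against 12.5 to 33.9, higher by 0.91 ± 0.20. The Gtse1 signals at 1 mg/kg and in controls (2.43 to 4.59) lay under the offset of 16, which compresses differences. Its call kept its direction, but the size of the Gtse1 difference ran from 0.34 to 2.34 over the alternatives and is poorly fixed. The tumour necrosis factor receptor Tnfrsf1a was higher by 0.72 ± 0.14, Kctd1 by 0.69 ± 0.11 and the secreted Wfdc10a by 0.91 ± 0.15. Rgs16, a brake on G protein signalling, was higher by 1.13 ± 0.22 and lost its call in the 2 groups alone. Cebpd, a transcription factor of the acute phase, was higher by 1.00 ± 0.24 and lost its call without 1 mg/kg replicate 1 or 2 (adjusted p = 0.0634 and 0.0527).

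The MHC class II gene RT1-Bb read 936, 428 and 534 at 1 mg/kg and 781, 12.9, 463, 831 and 2.54 at 3 mg/kg, with controls from 8.58 to 921. Its signals lay either at or under 12.9 or at or above 428 in the treated rats. In 1 mg/kg replicate 1, Slco1a6 read 895 against 296 and 313 in the other two rats, Rbp4 114 against 11.3 and 19.9, and Slc22a2 1048 against 524 and 686. Of 5674 kept probe sets with no symbol or with several symbols, 132 were called, 58 higher and 74 lower. Over all 21829 kept probe sets 619 were called, 353 higher and 266 lower.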
